A study of Mus musculus with 24 samples.

Results

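The early growth response genes Egr1, Egr2 and Egr3 and the immediate early response genes Ier2 and Ier3 were followed across B cell populations of the mouse spleen. Probe sets annotated to 1 of these genes alone were taken, and where a gene had several, the one brightest on average across the 24 arrays stood for it. The 5 members are among 18193 genes with such a probe set, and all 5 passed the filter on dim genes that left 11208 genes tested. Ier3 passed it only through the groups in which it was bright.

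Cells came from female C57BL/6 mice, with 3 arrays in each of 8 groups. Naive follicular B cells (B220+ AA4.1- CD21int CD23+) and marginal zone B cells (B220+ AA4.1- CD21high CD23low) were sorted from mice aged 8 to 10 weeks. Some follicular cells were cultured for 6 h with F(ab')2 fragments against IgM (10 µg/ml) and an antibody against CD40 (2 µg/ml), so stimulation and culture came together. Other mice, immunized at that age with the hapten NP coupled to a carrier and given in alum, gave hapten-binding B220+ IgG1+ cells, sorted as CD38+ PNA- memory and as CD38dull PNA+ germinal center B cells at day 7 and day 40. Plasma cells, sorted as CD138+ cells with low IgG1 and the lambda light chain, came from day 7. Every group passed a magnetic depletion of other cells before sorting, and RNA of every group was amplified. Nothing in the labels ties the 3 samples of a group to separate animals, so p-values measure only the spread between these samples, which may be technical.

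EGR proteins are zinc finger transcription factors whose genes are switched on within minutes of a signal, without new protein synthesis. In B cells the antigen receptor and CD40 act on them through the ERK kinases and the serum response factor SRF, which binds CArG boxes, and the corepressors NAB1 and NAB2 hold the EGR proteins in check. Egr1 accompanies activation and growth, whereas Egr2 and Egr3 are best known for restraining lymphocyte activation. Ier2 encodes a nuclear protein of the immediate early class. Ier3, also called IEX-1, encodes a short-lived protein induced by stress and NF-kB that is tied to cell survival.

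Promoter sequence from RefSeq (GRCm38.p6, 250 bases before to 50 after a transcript's start) is shown for Egr2 and Ier3, the 2 members for which a window could be printed. Egr2 is the member that differed most between stimulated and unstimulated follicular cells, and Ier3 the member with the most restricted pattern. Capitals in the Egr2 window mark, in order, an octamer (ATGCAAAT), a CArG box and a cyclic AMP response element core (ACGTCA), and capitals in the Ier3 window mark an NF-kB site on the minus strand.
Egr2, chr10:67537619-67537918, plus strand: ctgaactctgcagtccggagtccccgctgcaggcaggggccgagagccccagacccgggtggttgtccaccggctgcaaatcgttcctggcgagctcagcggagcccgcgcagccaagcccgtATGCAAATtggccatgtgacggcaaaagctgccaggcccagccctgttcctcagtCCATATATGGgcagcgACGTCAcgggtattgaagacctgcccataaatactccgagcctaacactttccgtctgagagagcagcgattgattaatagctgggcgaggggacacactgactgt
Ier3, chr17:35821463-35821762, plus strand: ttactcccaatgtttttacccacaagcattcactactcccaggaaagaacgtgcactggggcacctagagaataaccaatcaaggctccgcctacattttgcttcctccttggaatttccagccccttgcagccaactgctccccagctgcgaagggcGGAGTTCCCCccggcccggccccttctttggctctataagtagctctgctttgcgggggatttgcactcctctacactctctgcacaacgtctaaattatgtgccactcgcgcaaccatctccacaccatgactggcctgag
RefSeq gives 5 windows for Egr2, some of them overlapping, and the window printed is the first that holds all 3 motifs marked in it. Another Egr2 window, not printed, holds an NF-kB site and none of those 3 motifs, so such a site is not particular to Ier3. Both strands were searched, and the CArG box reads as a CArG box on either strand. Over 32851 windows of 27025 genes, a CArG box was found in 1.63%, the octamer in 1.74%, the response element core in 7.51% and an NF-kB site in 8.46%. An EGR site (GCGNGGGCG) was found in 5.55% of those windows and in 0 of the Egr2 and Ier3 windows. These matches describe letters and not binding.

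All values are log2 signals from the deposited GCRMA summaries, with a floor of 2.15 and a highest value of 16.43. Array medians ran from 2.39 to 2.86, and a gene is said to be at background in a group where each of its 3 arrays lay at or below its own median. Within groups, pairs of arrays had r = 0.974 to 0.996 across all 45101 probe sets, which are not independent replicates. Replicate 1 of the memory cells of day 7 stood nearer to the germinal center arrays of that day (r = 0.971) than replicate 2 (r = 0.953) and replicate 3 (r = 0.956) did. Its germinal center markers summed to 13.60 on the log2 scale, against 12.58 and 12.35, so calls between this group and another are also counted without it. Not all defining markers followed the sorts. Fcer2a, which encodes CD23, averaged 12.97 in follicular and 8.67 in marginal zone cells, and Cd1d1 averaged 14.04 in marginal zone and 10.98 in follicular cells. The marginal zone marker S1pr3 averaged 14.15 in marginal zone cells, but also 12.46 in stimulated follicular and 12.36 in memory cells of day 40, against 8.25 in follicular cells. Of 3 memory markers, Cd80 and Pdcd1lg2 were called lower in germinal center than in memory cells at both days. Nt5e was higher in germinal center cells of day 40 (12.04) than in memory cells (11.01). The 5 germinal center markers measured summed to 14.59 to 15.14 in germinal center cells, 12.35 to 13.60 in memory cells and 13.54 to 13.75 in follicular cells. The 13.60 of memory replicate 1 of day 7 thus lay within the range of naive follicular cells. Myeloid markers in that array summed to 14.44. In plasma cells 5 of 6 plasma cell markers were called higher than in follicular cells, and Pax5 was at background. In these bulk samples, fewer cells of a type and less RNA per cell cannot be told apart.

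**Figure D1:**
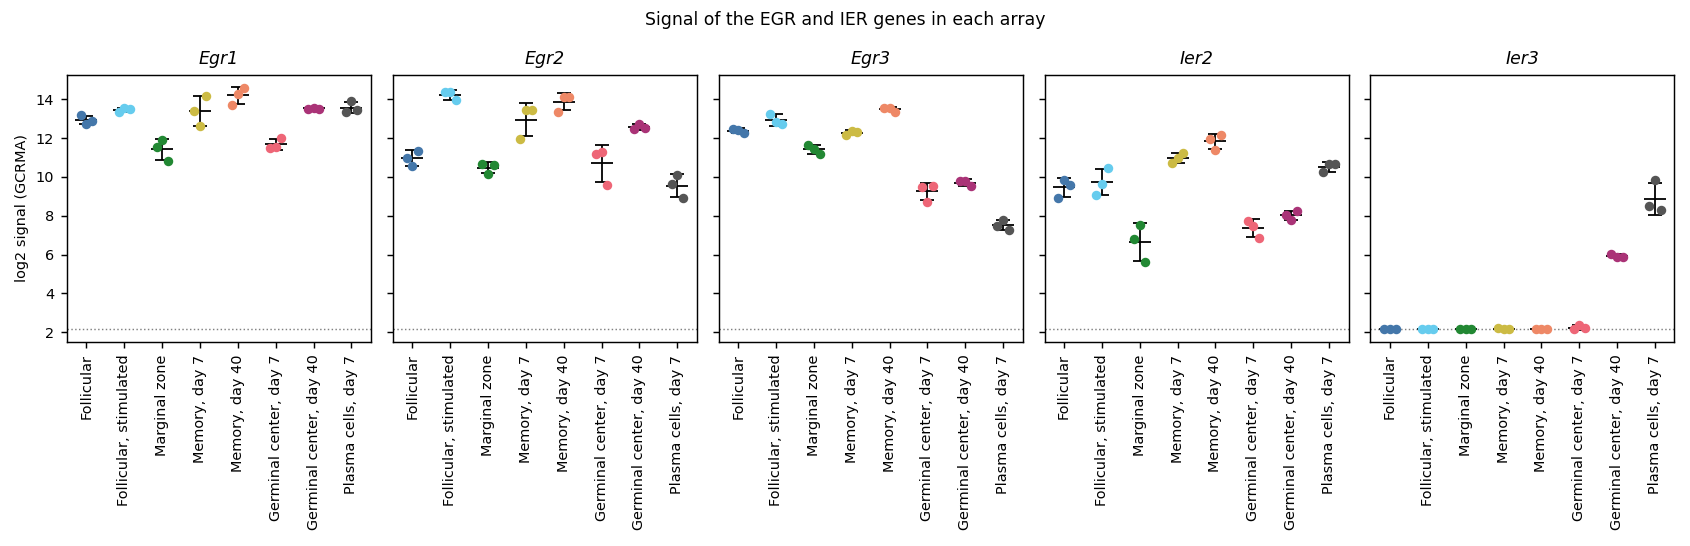
Each point is 1 array, the long horizontal line is the group mean and the bars are ± 1 SD (n = 3). The vertical axis is the log2 signal and the dotted line is the floor of 2.15. Ier3 leaves the floor in plasma cells and in germinal center cells of day 40, Egr3 is lowest in plasma cells, and Ier2 is lowest in marginal zone and germinal center cells.

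Egr1 was bright in every group. In follicular cells its 3 arrays read 13.18, 12.73 and 12.89, and in stimulated follicular cells 13.36, 13.55 and 13.49. Marginal zone arrays read 11.54, 11.88 and 10.83, and germinal center arrays of day 7 read 11.48, 11.57 and 12.01. These last 2 groups were the low ones and lay wholly below the follicular range. Memory arrays read 13.39, 12.62 and 14.17 at day 7 and 13.71, 14.29 and 14.60 at day 40. Germinal center arrays of day 40 read 13.52, 13.57 and 13.52, and plasma cell arrays 13.36, 13.92 and 13.44. By mean the order ran from memory cells of day 40 (14.20 ± 0.45, SD, n = 3) down through plasma cells, germinal center cells of day 40, stimulated follicular cells and memory cells of day 7 to follicular cells (12.93 ± 0.23), with each neighbour overlapping the next. The only gap in that order lay between follicular cells and germinal center cells of day 7 (11.69 ± 0.28), which overlapped marginal zone cells (11.42 ± 0.54).

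Egr2 was highest in stimulated follicular cells and in memory cells and lowest in plasma cells. Stimulated follicular arrays read 14.37, 14.37 and 13.95, against 10.97, 10.55 and 11.36 without stimulation. Memory arrays read 11.96, 13.47 and 13.43 at day 7 and 13.36, 14.11 and 14.13 at day 40, all of them above every unstimulated follicular array. The low memory array is replicate 1 of day 7, the library that stood near the germinal center arrays. Germinal center arrays read 11.20, 11.30 and 9.59 at day 7 and 12.48, 12.73 and 12.52 at day 40, so the days did not overlap. Marginal zone arrays read 10.68, 10.14 and 10.60, and plasma cell arrays 9.65, 10.10 and 8.92. The 4 high groups ran from stimulated follicular cells (14.23 ± 0.24) to germinal center cells of day 40 (12.58 ± 0.13) and overlapped their neighbours. A gap set those 4 apart from follicular cells (10.96 ± 0.41), germinal center cells of day 7 (10.70 ± 0.96) and marginal zone cells (10.47 ± 0.29). Follicular and marginal zone arrays lay above all plasma cell arrays (9.56 ± 0.60), whereas germinal center replicate 3 of day 7 lay within the plasma cell range. The other Egr2 probe set gave lower signals in all groups and kept stimulated follicular cells highest and plasma cells lowest.

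Egr3 had the most gaps between groups of the 5 genes. Memory arrays of day 40 read 13.56, 13.53 and 13.36, and stimulated follicular arrays 13.27, 12.84 and 12.71. Follicular arrays read 12.49, 12.41 and 12.25, and memory arrays of day 7 read 12.14, 12.37 and 12.34, so these last 2 groups overlapped. Marginal zone arrays followed at 11.67, 11.43 and 11.20. Germinal center arrays lay well below them, at 9.50, 8.72 and 9.54 on day 7 and 9.81, 9.80 and 9.53 on day 40. Plasma cell arrays were lowest, at 7.45, 7.79 and 7.29 (7.51 ± 0.26). Of 7 steps down the order, 5 were free of overlap, and the exceptions were follicular with memory cells of day 7 and the 2 germinal center groups. A second probe set for Egr3, the one tied to a RefSeq transcript in the annotation, lay at the floor of 2.15 in all 24 arrays, and the probe set used carries no accession there, so all Egr3 values rest on the latter.

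Ier2 was high in memory and plasma cells. Memory arrays read 11.98, 11.40 and 12.14 at day 40 and 10.73, 10.97 and 11.23 at day 7, and plasma cell arrays read 10.24, 10.65 and 10.65. Follicular arrays read 8.94, 9.87 and 9.60 and stimulated ones 9.09, 9.66 and 10.44, with overlapping ranges. Germinal center arrays read 7.73, 7.49 and 6.85 at day 7 and 8.03, 7.80 and 8.26 at day 40. Marginal zone arrays were lowest by mean and most scattered, at 6.79, 7.55 and 5.60 (6.65 ± 0.98). All marginal zone and germinal center arrays lay below the lowest follicular array.

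Ier3 was measured above background in just 2 groups. The filter on dim genes kept it through these groups alone, so its calls there, and member counts that include them, are not independent of the filter. Plasma cell arrays read 8.50, 9.83 and 8.30 (8.88 ± 0.83), and germinal center arrays of day 40 read 6.05, 5.86 and 5.88 (5.93 ± 0.10). In the other 6 groups all 18 arrays lay between 2.15 and 2.36, at or below the array's median. Memory cells sorted from mice at day 40 read 2.15, 2.16 and 2.15.

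Follicular cells cultured for 6 h with antibodies against IgM and CD40 were compared with uncultured, unstimulated ones. Stimulation and culture cannot be told apart in this comparison. Egr2 rose by 3.27 ± 0.44 (SE), or 9.65-fold (limma, Benjamini-Hochberg adjusted p = 3.59e-06). It was the 1 member of 5 called, where a call needs an adjusted p under 0.05 over all genes tested and a log2 change of at least 1. Of all genes tested, 16.9% were called higher. Egr3 differed by 0.56 ± 0.20 (adjusted p = 0.0246), under the minimum change, with no overlap between the groups. The Egr1 difference was 0.53 (95% interval -0.14 to 1.21, adjusted p = 0.168) and that of Ier2 was 0.26 (-0.60 to 1.12, adjusted p = 0.636). Ier3 was at background before and after.

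Marginal zone cells held less Egr1 and Ier2 than follicular cells. Ier2 fell by 2.82 ± 0.41, or 7.08-fold (adjusted p = 4.22e-05), and Egr1 by 1.52 ± 0.32, or 2.86-fold (adjusted p = 0.00205). Those were the 2 of 5 members called, both lower, where 3.83% of all genes tested were called lower. Egr3 differed by -0.95 ± 0.20 (adjusted p = 0.00217), just under the minimum change. Without replicate 3 of the follicular cells it was -1.02, and without replicate 1 of the marginal zone cells -1.07, and both were called. The Egr2 difference was -0.49 (95% interval -1.41 to 0.43, adjusted p = 0.564), within the overlap of the groups.

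Memory cells were compared with follicular cells to ask how antigen-experienced cells differ from naive ones. At day 40, Egr1, Egr2, Egr3 and Ier2 were all higher. Egr2 rose by 2.91 ± 0.44 (7.50-fold, adjusted p = 6.60e-05) and Ier2 by 2.37 ± 0.41 (5.17-fold, adjusted p = 2.62e-04). Egr1 rose by 1.27 ± 0.32 (adjusted p = 0.00689) and Egr3 by 1.10 ± 0.20 (adjusted p = 4.84e-04), and no range overlapped the follicular one. Thus 4 of 5 members were called higher, against 7.23% of all genes tested. At day 7, 2 of 5 were called, Egr2 (1.99 ± 0.44, adjusted p = 0.00164) and Ier2 (1.51 ± 0.41, adjusted p = 0.00772), both higher, against 9.18%. Without replicate 1 of that group they stood at 2.49 (adjusted p = 2.33e-04) and 1.63 (adjusted p = 0.0125). Egr1 (0.46, 95% interval -0.21 to 1.13) and Egr3 (-0.10, -0.52 to 0.32) overlapped the follicular range at day 7.

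**Figure D2:**
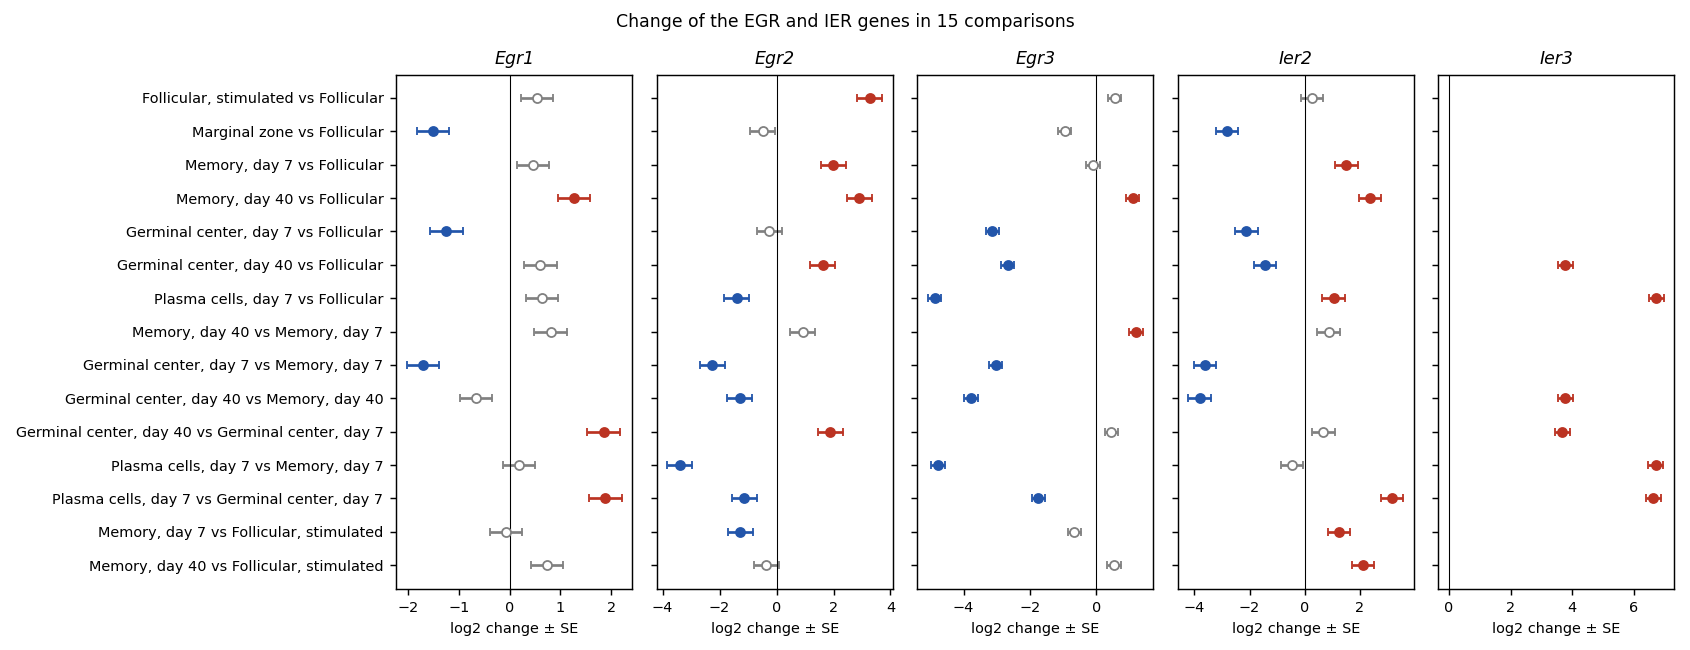
Points are log2 changes and bars ± SE from the fit over all 24 arrays, for 15 comparisons of groups of 3, written as first group against second. Filled points were called, red for higher and blue for lower, open points were not, and comparisons with Ier3 at background on both sides are left blank. Egr3 and Ier2 lie left of 0 in every comparison of germinal center cells with follicular or memory cells, and Ier3 appears only where plasma cells or germinal center cells of day 40 take part.

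Memory cells were also set against stimulated follicular cells. Ier2 was higher in memory cells of day 40 by 2.11 ± 0.41 (adjusted p = 1.95e-04), the 1 member of 5 called there, against 23.7% of all genes tested called higher. Egr2 differed by -0.36 (95% interval -1.28 to 0.56, adjusted p = 0.507), so its level in memory cells of day 40 overlapped that of cells 6 h into stimulation. Egr1 differed by 0.73 ± 0.32 (adjusted p = 0.0550) and Egr3 by 0.54 ± 0.20 (adjusted p = 0.0260, under the minimum change). With every array shifted to the same median, Egr1 differed by 1.01 (adjusted p = 0.00936) and was called, in a setting that put the median of all genes at 0.29. At day 7, 1 of 5 members was called higher and 1 lower, against 23.2% and 19.5% of all genes tested: Ier2 differed by 1.25 ± 0.41 (adjusted p = 0.0128) and Egr2 by -1.28 ± 0.44 (adjusted p = 0.0171). Without replicate 1 of the memory cells of day 7, Egr2 differed by -0.78 (adjusted p = 0.127), 1 of 4 settings in which it lost its call. Without replicate 1 of the stimulated cells, Ier2 differed by 0.93 (adjusted p = 0.0778).

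Germinal center cells carried less Egr3 and Ier2 than memory cells of the same day. At day 7, 4 of 5 members were called lower, against 12.1% of all genes tested. Ier2 fell by 3.62 ± 0.41 (12.3-fold, adjusted p = 1.41e-06) and Egr3 by 3.03 ± 0.20 (8.17-fold, adjusted p = 1.54e-09). Egr2 fell by 2.26 ± 0.44 (adjusted p = 4.12e-04) and Egr1 by 1.71 ± 0.32 (adjusted p = 3.06e-04), and without replicate 1 of the memory cells all 4 stayed called, at -3.74, -3.10, -2.75 and -1.71. At day 40 the decreases of Ier2 (-3.81 ± 0.41, adjusted p = 4.53e-07) and Egr3 (-3.77 ± 0.20, adjusted p = 3.51e-11) were of similar size. Egr2 was lower by 1.29 ± 0.44 (adjusted p = 0.0209), a call lost in 5 settings: without replicate 2 or 3 of the memory cells or replicate 1 or 3 of the germinal center cells, and with the other Egr2 probe set (adjusted p from 0.0534 to 0.0869). Egr1 differed by -0.66 (95% interval -1.34 to 0.01, adjusted p = 0.100). Ier3 went the other way, at least 11.4-fold higher in germinal center cells of day 40 than in memory cells (adjusted p = 4.07e-10), a lower bound because memory cells were at background. Thus 3 of 5 members were called lower and 1 higher at day 40, against 12.6% and 15.3% of all genes tested.

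Against follicular cells the germinal center groups split by gene. Egr3 fell by 3.13 ± 0.20 at day 7 (adjusted p = 5.25e-10) and by 2.67 ± 0.20 at day 40 (adjusted p = 2.82e-09). Ier2 fell by 2.11 ± 0.41 (adjusted p = 2.62e-04) and by 1.44 ± 0.41 (adjusted p = 0.00604). Egr1 fell at day 7 (-1.25 ± 0.32, adjusted p = 0.00313), and at day 40 it differed by 0.60 (95% interval -0.07 to 1.28, adjusted p = 0.128). Egr2 rose at day 40 (1.62 ± 0.44, adjusted p = 0.00441), and at day 7 it differed by -0.26 (-1.18 to 0.66, adjusted p = 0.682). Ier3 was at least 11.1-fold higher at day 40 (adjusted p = 2.38e-10). In all, 3 of 5 members were called lower at day 7, against 16.6% of all genes tested, and 2 lower and 2 higher at day 40, against 15.6% and 16.8%.

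Day 40 was compared with day 7 within each cell type. In germinal center cells Egr1 rose by 1.85 ± 0.32 (3.61-fold, adjusted p = 6.31e-04), Egr2 by 1.88 ± 0.44 (3.68-fold, adjusted p = 0.00864) and Ier3 by at least 11.3-fold (adjusted p = 2.74e-09). Those 3 of 5 were called higher, against 3.58% of all genes tested. Without replicate 3 of day 7, which read lowest, the Egr2 change was 1.33 (adjusted p = 0.0574). Egr3 differed by 0.46 ± 0.20 (adjusted p = 0.206) and Ier2 by 0.67 ± 0.41 (adjusted p = 0.422). In memory cells the 1 member of 5 called was Egr3, higher by 1.20 ± 0.20 (2.30-fold, adjusted p = 8.48e-04), against 2.74% of all genes tested, and it was again the 1 called, at 1.13, without replicate 1 of day 7. Egr1 (0.81 ± 0.32, adjusted p = 0.123), Egr2 (0.91 ± 0.44, adjusted p = 0.209) and Ier2 (0.86 ± 0.41, adjusted p = 0.201) had positive changes that did not pass. Without replicate 3 of day 7, Egr1 differed by 1.20 (adjusted p = 0.0212).

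The difference between the 2 day effects was tested as an interaction. It was called for Ier3 alone (-3.70 ± 0.34, memory minus germinal center, adjusted p = 8.31e-07), against 2.92% of all genes tested called in that direction. Because Ier3 was at background in memory cells at both days and in germinal center cells at day 7, this value reflects the level reached in germinal center cells of day 40. For Egr1 the interaction was -1.04 ± 0.45 (adjusted p = 0.212) and for Egr2 -0.97 ± 0.62 (adjusted p = 0.437). For Egr3 it was 0.74 ± 0.29 (adjusted p = 0.151) and for Ier2 0.19 ± 0.58 (adjusted p = 0.944). The rises of Egr1 and Egr2 in germinal center cells were therefore not shown to differ from the smaller changes in memory cells, nor was the rise of Egr3 in memory cells shown to differ from its change in germinal center cells.

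Plasma cells had less Egr3 and more Ier3 than any other group compared with them. Against follicular cells Egr3 fell by 4.87 ± 0.20 (29.3-fold, adjusted p = 1.96e-13), and Ier3 was at least 85.2-fold higher (adjusted p = 2.08e-14). Egr2 fell by 1.40 ± 0.44 (adjusted p = 0.00933) and Ier2 rose by 1.04 ± 0.41 (adjusted p = 0.0331), so that 2 of 5 members were called higher and 2 lower, against 20.3% and 22.4% of all genes tested. The Ier2 call was lost in 7 settings: without replicate 1 (0.78, adjusted p = 0.147) or 3 of the follicular cells, without replicate 2 or 3 of the plasma cells, with no filter, with the median shift and with array weights (0.91, under the minimum change). The Egr2 call was lost without replicate 3 of the plasma cells (-1.09, adjusted p = 0.0599) and with its other probe set. Egr1 differed by 0.64 (95% interval -0.03 to 1.31, adjusted p = 0.0933). The SE of Ier3 (0.24) is pooled over all groups, with an SD of 0 in follicular cells at the floor and 0.83 in plasma cells. Its p-values against plasma cells thus rest on a spread smaller than that of the plasma cell arrays.

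Against germinal center cells of the same day, plasma cells had 8.92-fold more Ier2 (3.16 ± 0.41, adjusted p = 2.21e-06), 3.70-fold more Egr1 (1.89 ± 0.32, adjusted p = 5.41e-05) and at least 87.2-fold more Ier3 (adjusted p = 3.24e-14). Egr3 was lower by 1.74 ± 0.20 (adjusted p = 5.56e-07). Egr2 was lower by 1.14 ± 0.44 (adjusted p = 0.0331) with overlapping ranges, and this call was lost in 8 settings. All 5 members were thus called, 3 higher and 2 lower, against 18.1% and 20.1% of all genes tested. Against memory cells of day 7, Egr3 fell by 4.77 ± 0.20 (adjusted p = 3.31e-13), Egr2 by 3.40 ± 0.44 (adjusted p = 2.26e-06), and Ier3 was at least 89.1-fold higher (adjusted p = 2.64e-14). That makes 2 of 5 lower and 1 higher, against 18.7% and 17.9%, and Egr1 (0.18 ± 0.32, adjusted p = 0.694) and Ier2 (-0.46 ± 0.41, adjusted p = 0.372) did not pass. Without replicate 1 of the memory cells the counts were again 2 lower (Egr3 at -4.84 and Egr2 at -3.89) and 1 higher.

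Markers of myeloid cells moved with the plasma cell results. The 8 myeloid markers summed to 15.24 to 15.39 on the log2 scale in plasma cells and to 7.69 to 8.81 in follicular cells, and 6 of 7 tested were called higher in plasma cells, against 20.3% of all genes tested. S100a9 averaged 14.20 there and Lyz2 13.16, whereas Adgre1 and Itgam, which define macrophages and other myeloid cells, were at background, and the product of Adgre1 was targeted by the depletion. T cell markers summed to 5.08 to 6.97 and NK cell markers to 4.39 to 9.04 in plasma cells, against 4.54 and 3.73 in follicular cells. The part of these cells in the plasma cell levels of the members was not tested.

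In germinal center cells of day 40 the myeloid markers summed to 14.45 in replicate 1, 9.38 in replicate 2 and 8.97 in replicate 3, and Ier3 read 6.05, 5.86 and 5.88 in the same arrays. Replicate 1 of the memory cells of day 7 summed to 14.44 and read 2.20 for Ier3. The part of myeloid cells in the Ier3 level was not tested. Of the 6 plasma cell markers, 1 was called higher at day 40 than at day 7 in germinal center cells, against 3.58% of all genes tested. It was Prdm1 (3.23 ± 0.55, adjusted p = 5.35e-04), the gene of the plasma cell regulator Blimp-1. Sdc1, which encodes CD138, averaged 6.95 and 7.42 at the 2 days, and Tnfrsf17 was at background at both. The part of plasma cells in the Ier3 level of these germinal center samples was not tested.

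**Figure D3:**
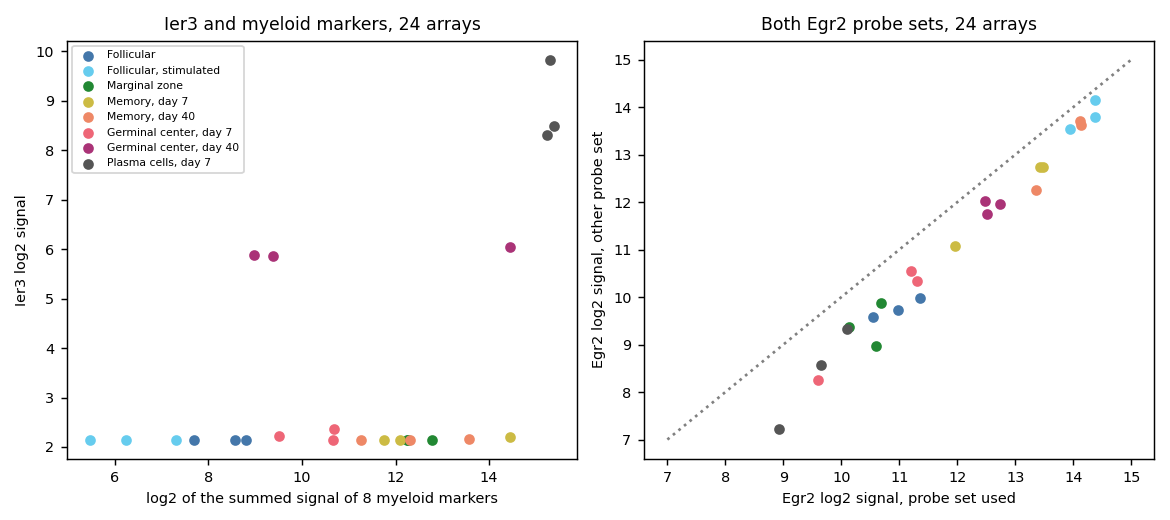
Left, the Ier3 log2 signal of each of 24 arrays against the log2 of the summed signal of 8 myeloid markers, coloured by group. Right, the log2 signals of both Egr2 probe sets in the same arrays, with the line of equal values dotted. The 3 germinal center arrays of day 40 read 5.86 to 6.05 for Ier3 across myeloid sums of 8.97 to 14.45, and in all arrays the Egr2 probe set used lies above the other.

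The corepressor Nab2, itself a target of EGR proteins, varied more than Nab1. Its mean was 10.01 ± 0.17 in stimulated and 8.67 ± 0.19 in unstimulated follicular cells, a rise of 1.33 ± 0.31. It averaged 6.05 ± 0.36 in marginal zone cells, 6.44 ± 0.76 in germinal center cells of day 7 and 4.46 ± 0.29 in plasma cells, and all 3 differed from follicular cells (-2.63 ± 0.31, -2.24 ± 0.31 and -4.22 ± 0.31). In germinal center cells of day 40 it averaged 8.70 ± 0.18, higher than at day 7 by 2.27 ± 0.31 (adjusted p = 5.07e-05), a rise in the same comparison in which Egr1 and Egr2 rose. Nab1 was called in 1 of the comparisons with follicular cells, higher in marginal zone cells by 1.52 ± 0.17. Nab1 and Nab2 thus moved in opposite directions there.

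Genes known as targets of Egr2 and Egr3, mostly from mouse T cells, were counted with the corepressors in a list of which 11 genes were tested. In stimulated follicular cells 5 were lower and 3 higher, against 22.4% and 16.9% of all genes tested. Dgka, a diacylglycerol kinase that dampens Ras signalling, fell by 8.07 ± 0.38, Cd44 rose by 2.09 ± 0.15, and Cblb, a ubiquitin ligase that limits receptor signalling, fell by 1.94 ± 0.14. The list median there was -0.76, against -0.02 for all genes tested. In plasma cells 7 were lower and 1 higher than in follicular cells, against 22.4% and 20.3% of all genes tested, led by Id3 (-8.08 ± 0.71), an inhibitor of E proteins, and the phosphatase gene Ptpn1 (-4.49 ± 0.21). In memory cells of day 40, 2 were lower and 1 higher, against 6.54% and 7.23%, with a median of -0.17 against -0.04.

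Other immediate early genes, 28 of them tested, rose most broadly in memory cells. In memory cells of day 40, 20 of 28 were called against follicular cells, all of them higher, against 7.23% of all genes tested, with a median change of 1.99 against -0.04 for all genes. The largest rises were those of the AP-1 gene Fosl2 (at least 10.29, since it was at background in follicular cells), Nr4a3 (9.77 ± 0.26), Nr4a2 (8.61 ± 0.29) and Fosb (8.17 ± 1.12). At day 7, 14 of 28 were called, all higher, against 9.18%, and the count was 14 without replicate 1 of that group as well. Stimulated follicular cells had 11 higher and 7 lower, against 16.9% and 22.4%: the orphan nuclear receptor genes Nr4a3 (8.71 ± 0.26) and Nr4a2 (6.19 ± 0.29) rose, while Fos fell by 6.70 ± 0.43. Marginal zone cells had 2 higher and 4 lower, against 7.21% and 3.83%, with Sgk1 lowest (-5.08 ± 0.53).

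Germinal center cells had fewer of these transcripts than memory cells. At day 7, 14 of 28 were called, all lower (12 without replicate 1 of the memory cells), against 12.1% of all genes tested, and at day 40, 16 of 28, all lower, against 12.6%. Fosl2 (-9.26 ± 0.63), Nr4a2 (-5.76 ± 0.29), Atf3 (-3.37 ± 0.72) and Myc (-3.23 ± 0.63) fell most at day 7. Fosl2 in germinal center cells was near the floor at day 7 (2.33 ± 0.17, SD) and scattered at day 40 (5.65 ± 2.06, SD). From day 7 to day 40, 3 of 28 rose in germinal center cells, against 3.58%: Fosl2 (3.32 ± 0.63), Maff (2.01 ± 0.44) and Nr4a2 (1.78 ± 0.29), with a list median of 0.47. In memory cells 1 rose, Junb (1.24 ± 0.30), against 2.74%, with a list median of 0.64, and 1 was called without replicate 1 of day 7 as well. In plasma cells 11 were higher and 2 lower than in follicular cells, against 20.3% and 22.4%, led by Fosb (8.29 ± 1.12) and Atf3 (7.72 ± 0.72).

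**Figure D4:**
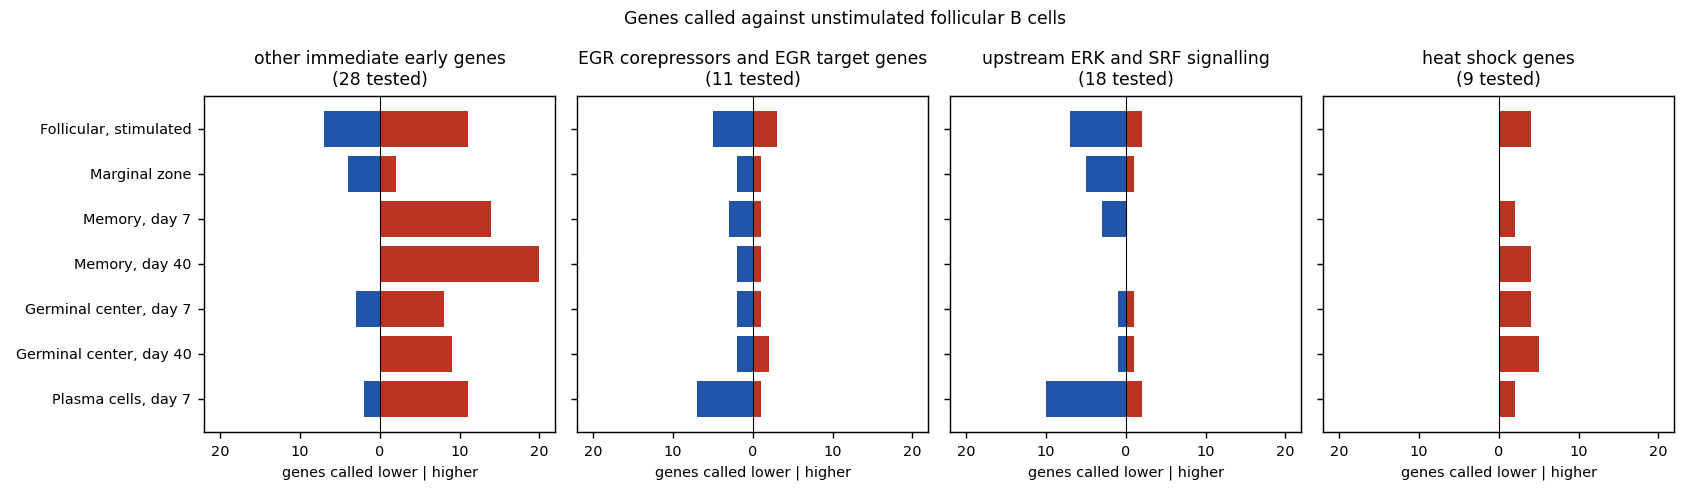
Bars give the number of genes called higher (red, right) and lower (blue, left) than in unstimulated follicular cells, for 4 gene lists and 7 groups of 3 arrays. Other immediate early genes reach 20 of 28 higher in memory cells of day 40, and the upstream list reaches 10 of 18 lower in plasma cells.

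Genes that carry the signal to the members or inhibit it, 18 of them tested, were mostly lower where called. Activators and inhibitors were counted together, so these counts give no direction of signalling. In plasma cells 10 were lower and 2 higher, against 22.4% and 20.3% of all genes tested. Rasgrp1, an activator of Ras, fell by 8.64 ± 0.27. Srf was lower in plasma cells than in follicular cells (-1.35 ± 0.14), the 1 comparison with follicular cells in which it was called. Stimulated cells had 7 lower and 2 higher, against 22.4% and 16.9%, with falls of the kinase gene Rps6ka5 (-5.10 ± 0.23) and the SRF cofactor gene Mrtfa (-4.29 ± 0.36) and a rise of Spry2 (3.15 ± 0.54), which encodes a feedback inhibitor of ERK signalling. Marginal zone cells had 5 lower and 1 higher, against 3.83% and 7.21%, and the lowest were the ERK inhibitor genes Spred1 (-3.41 ± 0.50), Spry2 (-3.26 ± 0.54) and Spred2 (-2.71 ± 0.43). In memory cells of day 7, 3 were called, all lower, against 9.20%, and 3 without replicate 1 of that group.

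Among other family members, Egr4 lay at the floor in all 24 arrays. Ier5 was bright throughout, from 13.99 in memory cells of day 40 to 11.78 in germinal center cells of day 40. It fell in germinal center against follicular cells at day 7 (-1.70 ± 0.21) and day 40 (-2.05 ± 0.21). In stimulated follicular cells it fell by 1.07 ± 0.21. Ier5l was at background in every group except memory cells of day 40, where 1 array read 3.23.

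Heat shock genes differed between the same groups. Their log2 summed signal ran from 16.10 to 16.35 in follicular and 16.32 to 16.48 in marginal zone cells, from 16.61 to 16.89 in memory cells of day 7 and 16.89 to 17.27 in those of day 40. It ran from 16.91 to 17.32 in germinal center cells of day 7, 17.18 to 17.23 in those of day 40, 16.51 to 16.96 in plasma cells and 17.14 to 17.26 in stimulated follicular cells. Hspa1b averaged 4.45 in follicular cells, 14.11 in memory cells of day 40 and 13.99 in germinal center cells of day 7. Of 9 tested, 4 were called in memory cells of day 40 against follicular cells, 2 in those of day 7 (2 without replicate 1 of that group) and 5 in germinal center cells of day 40, all higher, against 7.23%, 9.18% and 16.8% of all genes tested. Their part in the levels of the members was not tested. Immunized and naive mice also differed in the antibodies used for depletion, which cannot be told apart from cell type.

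Genes with the pattern most like each member were found by Pearson's r over all 24 arrays, among 10612 genes, as a description in which arrays of a group share their cells. For Egr3 it was Pcf11 (r = 0.969, and 0.998 over the 8 group means), and Ccr6, a chemokine receptor gene, stood at 0.933. For Egr2 the first were Gdap10 (0.892), the activation marker Cd83 (0.880) and Nr4a1 (0.865). For Egr1 they were Cd69 (0.835), another activation marker, and Tfe3 (0.821), and Cd69 was also near Ier2 (0.850) after Ndel1 (0.876) and Sqstm1 (0.865). For Ier3 they were Sec24d (0.964), a gene of the secretory pathway, Prg2 (0.964) and Arg2 (0.963). Sec24d averaged 12.65 in plasma cells, 8.61 in germinal center cells of day 40 and 3.74 in those of day 7, the same order as Ier3. Prg2 (12.35, 5.82 and 3.15) and Arg2 (7.01, 5.30 and 3.02) had that order too.

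The members did not share 1 pattern. Over 24 arrays Egr1 and Ier2 had r = 0.802 (0.854 over the 8 group means), and Egr2 and Egr3 had r = 0.694 (0.726). Egr1 with Egr3 stood at 0.216, and Egr3 with Ier3 at -0.790. Within groups, after each group's mean was removed, the 10 pairs ran from -0.153 to 0.305, so the likeness lay between groups.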

How the data were processed

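RNA of 24 spleen B cell samples was measured on Affymetrix arrays. The deposited values are log2 summaries per probe set, made with GCRMA per the submitters' processing notes, whose version is not given in the sources used here. They were used as deposited. Of 45101 probe sets, 34945 were paired with 1 gene in the platform annotation, 932 with several and 9160 with none, beside 64 controls, and 34741 of the 34945 matched a RefSeq gene. Probe sets used were 1417065_at (Egr1), 1427682_a_at (Egr2), 1436329_at (Egr3), 1416442_at (Ier2) and 1419647_a_at (Ier3), the highest by mean of each gene.

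Genes above the array's median on at least 3 arrays (11208) were tested with limma 3.58.1 in R 4.3.3, as 8 group means over all 24 arrays, so the SE of a gene is pooled over all groups. Genes at an adjusted p under 0.05 (Benjamini-Hochberg over all genes tested) and a log2 change of at least 1 were called. Folds against a group at background are lower bounds, taken from the bright group's mean against, per array, the higher of the value and the array's median. The p-value beside such a bound tests the difference of the values as deposited, not the bound. The number of arrays limits the precision, and from 36.8% to 43.1% of an array's probe sets were at the floor. The procedure was tested on simulated data. Plots were made in matplotlib 3.10.9 (Python 3.11.15).

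Besides the members, up to 4 called genes per described list and comparison with the largest change were named, with Nab1, Nab2 and Srf, and for each member up to 5 genes of highest Pearson r. Marker genes outside that rule (Fcer2a, Cd1d1, S1pr3, Cd80, Pdcd1lg2, Nt5e, Pax5, S100a9, Lyz2, Adgre1, Itgam, Prdm1, Sdc1, Tnfrsf17) and the family members Egr4, Ier5 and Ier5l were singled out after their values were seen. Lists were upstream ERK and SRF signalling (18 of 23 genes tested), EGR corepressors and targets (11 of 12), other EGR and IER family genes (1 of 3), other immediate early genes (28 of 28), heat shock genes (9 of 10) and cell type markers. The members and lists were chosen with earlier results of these data known.

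Alternatives left out 1 array at a time, fitted only the groups compared, added a replicate block or array weights, and used a trended, robust prior. Others dropped the filter or raised it to the 75th percentile, dropped the minimum change, averaged a gene's probe sets, added 16 to linear signals, or rescaled arrays to a common median or by quantiles. The other Egr2 probe set was added after the data were seen.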

Additional observations from a re-analysis of the deposited data

Results flagged for a closer look

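The change of Ier3 from day 7 to day 40 differed between memory and germinal center cells, by an interaction of -3.70 (memory minus germinal center, adjusted p = 8.31e-07, limma). It drew attention because the difference of the day effects was itself tested and passed. All 3 germinal center arrays of day 40 lay above background for Ier3, and all arrays of the other 3 groups in that test lay at background. The interaction was fitted on the values as deposited and is not a bound. Ier3 passed the main filter only through plasma cells and germinal center cells of day 40, so this call is not independent of the filter. It was not tested under the filter at the 75th percentile.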

How the results depend on the processing

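Over 36 alternatives, 24 of them leaving out 1 array each, 11 of 44 called member changes lost their call in at least 1, no called change turned direction, and 7 uncalled changes became called. The calls lost in most settings were those of Egr2 in plasma against germinal center cells (8), Ier2 in plasma against follicular cells (7), Egr2 in germinal center against memory cells of day 40 (5) and Egr2 in memory cells of day 7 against stimulated cells (4). With the other Egr2 probe set, adjusted p was 0.0506 for plasma against follicular cells, 0.0635 for plasma against germinal center cells and 0.0869 for germinal center against memory cells of day 40. With only the groups compared in the fit, Egr2 lost its calls in germinal center against memory cells of day 7 (adjusted p = 0.0627) and in germinal center cells of day 40 against day 7 (0.115), with unchanged log2 differences. The cause was not tested.

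The number of members called was 0 for the interaction with the filter at the 75th percentile, which left Ier3 untested, and 0 for memory cells of day 40 against day 7 with the mean of all probe sets, which put the Egr3 change at 0.60 because its other probe set was at the floor. Memory cells of day 7 against stimulated cells had 1 member called with arrays shifted to the same median, with array weights and with only the groups compared. Memory cells of day 40 against stimulated cells had 2 with the median shift and with no minimum change, and stimulated against unstimulated cells had 2 with no minimum change. Leaving out 1 array gave 1 to 2 members called for memory cells of day 7 against stimulated cells, for memory cells of day 40 against day 7 and for the interaction (Egr3 joined without replicate 2 of the germinal center cells of day 7, at 1.01), and 2 to 4 for plasma against follicular cells. Uncalled changes that turned sign were those of Egr1 in memory cells of day 7 against stimulated cells (0.22 with the median shift, 0.17 with array weights, -0.46 to 0.31 with 1 array left out), Egr1 in plasma against memory cells (-0.17 with array weights, -0.21 to 0.57 with 1 array left out), Ier2 in stimulated against unstimulated cells (-0.15 with array weights, -0.095 to 0.58 with 1 array left out, and below 0 without follicular replicate 1 or stimulated replicate 3), Egr3 in memory cells of day 7 against follicular cells (0.036 with array weights), the Ier2 interaction (-0.010 with array weights) and Egr2 in germinal center cells of day 7 against follicular cells (-0.57 to 0.29 with 1 array left out, and 0.29 without germinal center replicate 3).

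Pairing of samples by replicate number was not seen: in 0 of 15 comparisons were all 3 correlations of same-numbered deviations above 0.1 (range -0.496 to 0.445). With 3 arrays a group this check cannot exclude a pairing, and the labels state none. With the replicate block the number of members called was unchanged in every comparison, for example 4 in memory cells of day 40 against follicular cells. Shifting arrays to the same median put the median of all genes at -0.24 in stimulated against follicular cells, at 0.29 and 0.30 in memory cells of day 40 and day 7 against stimulated cells, and between -0.14 and -0.18 in the plasma cell comparisons. It made 65.0% and 65.3% of the calls against stimulated cells higher, against 54.9% and 54.4%.

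Counts over all genes moved by over 1.5 times in some settings. Memory cells of day 40 against day 7 had 563 genes called, and 366 with the stricter filter, 908 with array weights, 199 with only the groups compared and 1141 with no minimum change. Germinal center cells of day 40 against day 7 had 665, and 428, 425 (only the groups compared) and 1008 (no minimum change). The interaction had 555, and 354 and 975 (array weights), and marginal zone against follicular cells 1237, and 805 and 1956 (no minimum change). With no minimum change, counts rose from 2060 to 3686 and from 1543 to 2617 for memory against follicular cells at day 7 and day 40, from 3474 to 5682 and from 3636 to 5796 for germinal center against follicular cells, and from 2655 to 4672 and from 3128 to 5298 for germinal center against memory cells. Signal over background limits Ier3 to bounds in 6 groups.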
